A study of Mus musculus with 55 samples.

Results

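Pre-mRNA levels were compared between asynchronous and mitotic CTCF-AID mouse embryonic stem (ES) cells that had received no auxin (IAA). The 6 libraries of this comparison, 3 of each stage, were chosen by their labels out of 55 in the series, without regard to any measured value. CTCF-AID cells derive from E14Tg2a ES cells of strain 129/Ola and were engineered so that the insulator protein CTCF is degraded when IAA is added. Both stages carried this engineered Ctcf and neither received IAA. The methods name 1 CTCF-AID line, kept in serum and LIF, and call the replicates independent, so that p-values measure the spread between 3 replicates of that line. Mitotic cells had been held for 4 h in 10 µM RO-3306, an inhibitor of CDK1, and for 4 h in 50 ng/ml nocodazole, which depolymerises microtubules, and were collected by shake-off. The sources describe no such block for asynchronous cells, so that the effects of cell cycle stage, of the drugs and of the shake-off cannot be told apart.

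In mitosis chromosomes condense, and RNA polymerase II and many transcription factors leave the chromatin, so that transcription falls. In bulk RNA, fewer cells that transcribe a gene and less RNA per cell cannot be told apart. Pre-mRNA still holds its introns and is soon spliced, and its level is therefore read as a measure of recent transcription, whereas mature mRNA made earlier can persist through division. ES cells divide quickly with a short G1 phase, so that an asynchronous culture holds many cells in S phase.

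The deposited values were TPM (transcript abundance relative to all transcripts of the library) of the pre-mRNA isoform of each of 10237 genes, summing to between 18606 and 28455 TPM per library. Asynchronous libraries summed to 1.11, 1.09 and 1.22 times the mitotic library of the same replicate number. To be kept by the authors, a gene needed a mean above 0.5 TPM, either when asynchronous or at 2 or more times after release from mitosis. Genes that pass this level in mitotic cells alone could not enter the table, which limits the genes that could be called lower in asynchronous cells. Of the 10237 genes deposited for CTCF-AID cells, 10235 met the criterion after release, with the groups with and without IAA each counted, and 2 met it through asynchronous cells alone. TPM hold no read counts, so the sequencing depth is unknown, and each difference was set against how much replicates varied. Between replicates of a stage, Spearman's rho across genes was 0.933 to 0.972. Library by library, the 9 of 10 pluripotent cell markers in the table summed to 83.1 to 164 TPM in asynchronous and 55.4 to 91.7 TPM in mitotic cells, while the markers of other lineages were sparse. Only 1 of 10 endoderm and 2 of 9 fibroblast markers were listed, and their sums reached at most 0.302 and 1.17 TPM in any of the 6 libraries. The 3 of 8 mesoderm, 4 of 8 trophectoderm and 3 of 8 two-cell-like markers listed summed to at most 4.13, 6.43 and 4.34 TPM. Of these, the trophectoderm marker Krt18 was called higher in asynchronous cells by 0.70 (adjusted p = 0.010), and so were the two-cell-like markers Zscan4c, Zscan4d and Zscan4f by 0.27, 0.29 and 0.43 (adjusted p = 0.0042, 0.011 and 0.0075). Neural markers, 3 of 8 listed, were the exception in direction, with 3.25 to 4.63 TPM in asynchronous and 6.18 to 9.27 TPM in mitotic cells. Among the neural markers only the tubulin gene Tubb3 was called, and Pax6 and Nes differed by 0.01 and 0.12 on the log2 scale (adjusted p = 0.95 and 0.60). The part of these cells in the results was not tested.

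Most genes had more pre-mRNA in asynchronous cells, by a modest margin. Over all genes the median difference in log2(TPM + 1), asynchronous minus mitotic, was 0.11, 0.08 and 0.16 in the 3 replicate pairs (mean 0.12 ± 0.04 SD, n = 3 pairs). All 3 pairs lay above 0, and the exact paired permutation test gave p = 0.25 (two-sided), the smallest p that 3 pairs allow. Taken unpaired, the medians of the libraries gave p = 0.2 by the exact permutation test, where 0.1 is the smallest possible. Of the genes that this filter kept, 73.2% had a difference above 0, and the quartiles of the difference were -0.01 and 0.26.

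Gene by gene, 3143 genes were called higher in asynchronous cells (30.7% of those tested) and 459 lower (4.48%), by limma with the replicate as a block and a Benjamini-Hochberg adjusted p under 0.05. The changes were mostly small, with a median log2 difference of 0.34 among genes called higher and of -0.36 among those called lower. Only 59 genes were called higher by more than 1 on the log2 scale and 9 lower by more than 1. Of the 3602 called genes, 3555 moved the same way in 3 of 3 pairs. The 3 asynchronous and 3 mitotic libraries did not overlap for 2418 genes that were higher (23.6% of all) and 368 that were lower (3.59%) in asynchronous cells. Scaling all libraries to the same total moved the median of all genes to 0.03 and the calls to 2439 higher (23.8%) and 1933 lower (18.9%), so that the share of higher among all calls fell from 87.3% to 55.8%. Scaling by median ratios gave 2174 higher (21.2%) and 2216 lower (21.6%), a share of 49.5%, so that lower calls were then slightly more numerous. Dividing each library by the factor of its value step, the spacing of its low TPM values, gave 6596 higher (64.4%) and 148 lower (1.45%), a share of 97.8%. That factor was larger in the mitotic library of each pair. After scaling to the same total, all 459 genes called lower and 2401 of the genes called higher kept their call. Counts of list members at the same total, given below, can be read against the 23.8% higher and 18.9% lower of all genes. The number of calls rested on the replicates: without replicate 1 there were 669 higher (6.54%) and 80 lower (0.781%), without replicate 2 there were 2540 (24.8%) and 285 (2.78%), and without replicate 3 there were 1327 (13%) and 214 (2.09%), shares against which the counts below with a replicate left out can be read. Replicate 1 alone held a library of every stage, so the fit without it had the fewest libraries left to estimate the spread. Calls lost without replicate 1 cannot be told apart from an effect of this smaller fit. Without the replicate block, 712 and 76 were called.

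**Figure D1:**
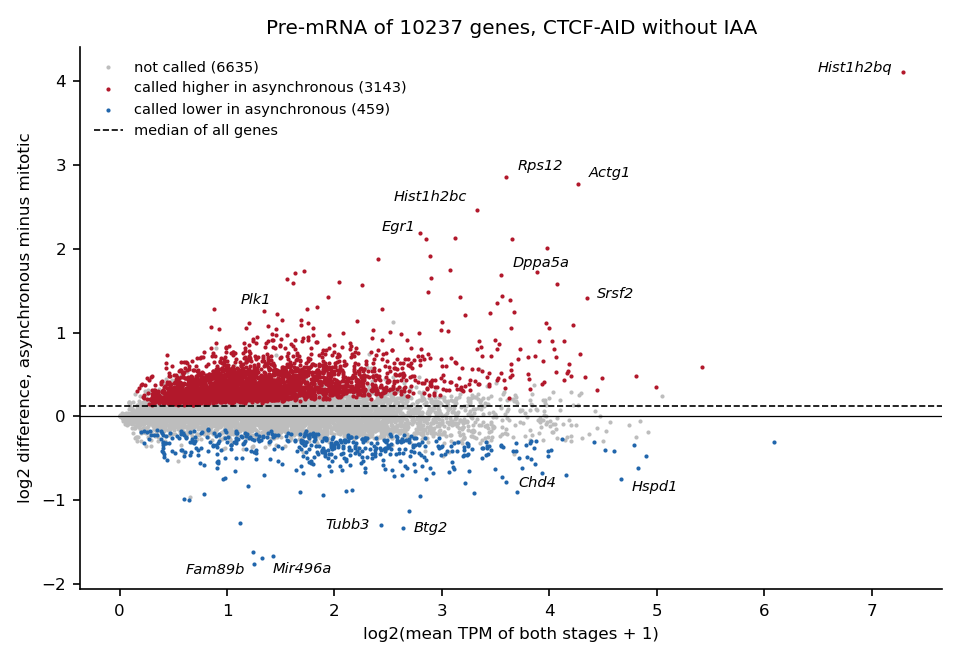
Difference in log2(TPM + 1), asynchronous minus mitotic (y axis), against the level of the gene, log2 of the mean TPM of both stages plus 1 (x axis), for 10237 genes of CTCF-AID cells without IAA. Red and blue points are the 3143 genes called higher and the 459 called lower in asynchronous cells, and the dashed line is the median of all genes; Hist1h2bq stands alone at the top right.

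The 10 genes with the largest rise held histone, ribosomal protein and cytoskeleton genes. Hist1h2bq, a gene of the core histone H2B (positions on GRCm38 from Gencode, chr13:21806612-21810197, minus strand), was at 262, 373 and 243 TPM in asynchronous and at 20.4, 28.6 and 6.34 TPM in mitotic cells. It had the largest of the called differences and its stages did not overlap, 15.9-fold by mean TPM, or 4.11 ± 0.35 (SE) on the log2(TPM + 1) scale (adjusted p = 1.2e-05). Hist1h2bc, another H2B gene, stood at 14.8, 16.2 and 16.8 TPM against 3.61, 1.59 and 1.40 TPM, a log2 difference of 2.47 ± 0.23. H2B genes are near-identical copies, so the split of reads among them is uncertain. Actg1, which encodes cytoplasmic gamma-actin (chr11:120345690-120348542, minus strand), was at 26.9, 37.2 and 33.2 TPM in asynchronous and at 5.20, 4.86 and 2.15 TPM in mitotic cells. Every asynchronous library was thus above every mitotic one, 7.98-fold by mean TPM (log2 difference 2.77 ± 0.21, adjusted p = 5.7e-06).

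Egr1, an immediate early transcription factor that follows growth factor signalling, was at 9.74, 12.2 and 10.3 TPM against 1.78, 1.32 and 2.07 TPM (log2 difference 2.11 ± 0.23). Among ribosomal protein genes, Rps12 was at 19, 20 and 21.5 TPM against 2.15, 3.34 and 0.802 TPM (2.86 ± 0.26), and it holds the snoRNA genes Snora33 and Snord100 on its strand. Rpl9, Rps27 and Rps27a followed with log2 differences of 2.19, 2.12 and 2.01. The many processed copies of such genes in the genome make the share of reads given to each uncertain. Snhg6, a noncoding host of the snoRNA Snord87, was at 19.7, 19.7 and 18.3 TPM against 3.50, 5.52 and 2.46 TPM (2.12 ± 0.19). The last of the 10, 2410002F23Rik, rose by 1.92 ± 0.37 and spread widely among replicates, from 6.47 to 17.3 TPM against 0.317 to 3.65 TPM. All 10 genes kept their call when any replicate was left out, without the replicate block and after scaling to the same total.

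**Figure D2:**
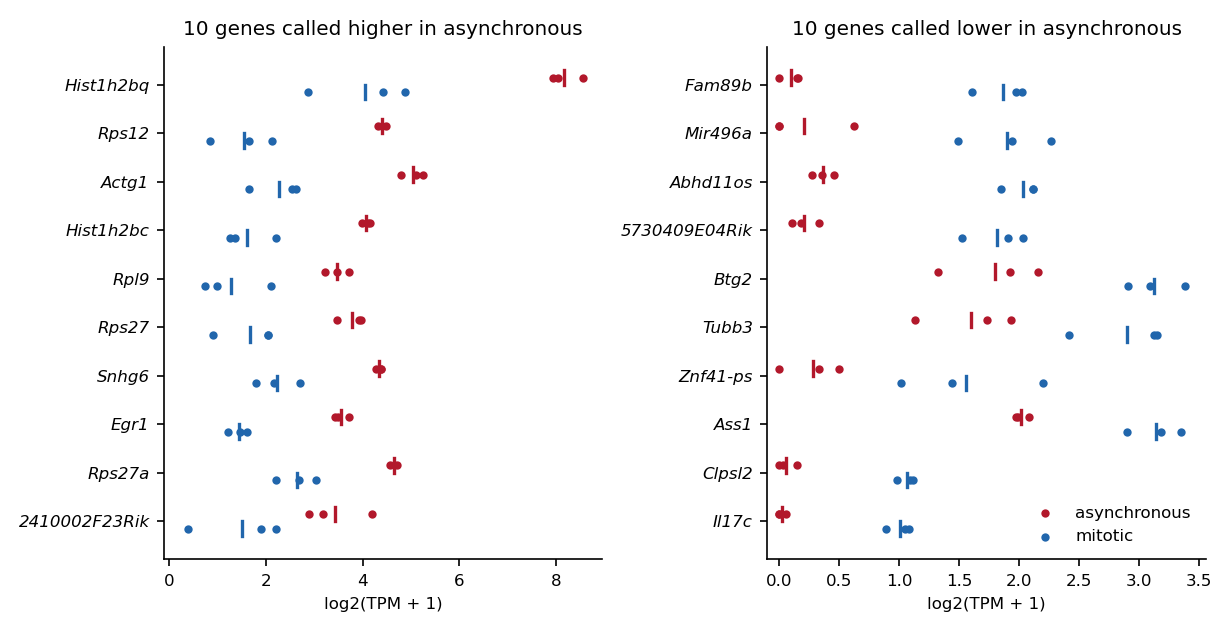
Level, as log2(TPM + 1), of the 10 genes called higher (left) and the 10 called lower (right) in asynchronous cells with the largest differences. Points are the 3 asynchronous (red) and 3 mitotic (blue) libraries and vertical bars their means; the stages overlap for none of the 20 genes.

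As deposited, fewer genes were called with more pre-mRNA in mitotic cells, and their largest differences were smaller. Median ratios turned this order of counts round, with 2216 called lower and 2174 higher. The filter on the genes bears on these counts, since the mitotic level could not bring a gene into the table, and its part in them was not tested. Btg2, an antiproliferative immediate early gene that p53 also induces (chr1:134075170-134079120, minus strand), was at 2.79, 3.45 and 1.51 TPM in asynchronous and at 7.53, 6.52 and 9.47 TPM in mitotic cells. Mitotic cells thus held 3.03 times as much of it (log2 difference -1.33 ± 0.21, adjusted p = 6.3e-04), though the call was lost without replicate 1. Tubb3, a beta-tubulin gene best known from neurons, was at 2.32, 1.19 and 2.83 TPM against 7.92, 4.34 and 7.74 TPM (-1.30 ± 0.13, adjusted p = 2.8e-05), and kept its call whichever replicate was left out. Ass1, argininosuccinate synthase of the arginine pathway, was at 2.94, 2.98 and 3.25 TPM against 8.09, 6.49 and 9.19 TPM (-1.13 ± 0.11). Both stages of these 3 genes were above 1 TPM in every library.

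The other 7 were at or under 0.543 TPM in every asynchronous library. Fam89b was at 0.112, 0.109 and 0 TPM against 2.04, 3.08 and 2.93 TPM (log2 difference -1.77 ± 0.27), Abhd11os at 0.279, 0.369 and 0.208 TPM against 3.35, 2.61 and 3.34 TPM (-1.67 ± 0.18), and 5730409E04Rik at 0.260, 0.130 and 0.0755 TPM against 3.09, 1.88 and 2.74 TPM (-1.62 ± 0.16). Fam89b overlaps Sssca1 on the same strand, so their reads cannot be told apart with certainty. Clpsl2, a colipase-like gene, and Il17c, a cytokine gene, were at or under 0.109 TPM in every asynchronous library and at 0.854 to 1.17 TPM in every mitotic one (-1.0 ± 0.12 and -0.99 ± 0.20). Both Il17c and Tubb3 overlap the long gene model Gm20388. Znf41-ps, a pseudogene, fell by 1.28 ± 0.21, lost its call without replicate 1 and moved by more than 1.5 times without replicate 3. The microRNA gene Mir496a is described with its host below.

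CTCF itself, the engineered gene, had 6.54, 6.11 and 9.13 TPM of Ctcf pre-mRNA in asynchronous and 5.74, 6.15 and 6.78 TPM in mitotic cells. These ranges overlap, and the log2 difference of 0.18 (95% interval -0.04 to 0.39, adjusted p = 0.18) did not pass the test, though with the step factor divided out it was 0.43 ± 0.11 (adjusted p = 0.0045), where the median of all genes was 0.28. Of the 22 listed genes of CTCF, cohesin and condensin, which shape chromosomes through the cycle, 4 were called higher (18.2%, below the 30.7% of all genes) and 0 lower as deposited, and their median of 0.13 stood close to that of all genes. At the same total 2 were higher and 4 lower (18.2%, against 18.9% of all genes). With the step factor 17 were higher (77.3%, above the 64.4% of all genes) and 0 lower. Rad21, a cohesin subunit, was at 5.06, 4.58 and 6.59 TPM against 3.94, 3.08 and 4.37 TPM (0.42 ± 0.10). Ncapg and Ncaph2, condensin subunits, differed by 0.29 and 0.28. Without replicates 1, 2 and 3 the higher calls were 0, 2 and 0 of the 22.

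Part of the pluripotency network was higher in asynchronous cells, while its core factors did not pass the test. Pou5f1, which encodes OCT4, was at 11.2, 6.82 and 13.2 TPM in asynchronous and at 11.7, 7.20 and 11.7 TPM in mitotic cells, with a log2 difference of 0.02 ± 0.16 (adjusted p = 0.95). The difference of Nanog was 0.24 ± 0.14 (adjusted p = 0.19), with 6.6, 6.76 and 11.4 TPM against 5.85, 5.49 and 9.01 TPM. Neither passed the test, though Nanog was called with the step factor divided out (0.49 ± 0.14, adjusted p = 0.0058), and Sox2 was not analysed here. Of 27 core and naive pluripotency genes, 12 were called higher (44.4%, against 30.7% of all genes) and 1 lower (3.70%, against 4.48%), and their median difference was 0.34, against 0.12 for all genes. With the step factor 18 were higher (66.7%, close to the 64.4% of all genes) and 1 lower. Dppa5a, an RNA-binding protein of early embryos, was at 23.9, 12.4 and 14.5 TPM against 6.39, 3.08 and 4.19 TPM (1.68 ± 0.16, adjusted p = 2.8e-05). Utf1, a chromatin factor, and Tdgf1, the Nodal co-receptor Cripto, rose by 1.43 ± 0.16 and 1.35 ± 0.28. Dppa5a, Utf1 and Tdgf1 kept their calls whichever replicate was left out.

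Lin28a, which blocks let-7 maturation, went the other way, at 2.75, 3.56 and 3.85 TPM against 5.02, 6.4 and 5.25 TPM (log2 difference -0.58 ± 0.12, adjusted p = 0.0020), and lost its call without replicate 1. Counts of higher calls in this list were 6, 14 and 7 of 27 without replicates 1, 2 and 3, where 6.54%, 24.8% and 13% of all genes were higher. In the 9 listed primed and formative genes 4 were higher (44.4%, against 30.7% of all genes) and 0 lower (4.48% of all genes). With the step factor 6 were higher (66.7%, close to the 64.4% of all genes) and 0 lower. With a replicate left out 1, 5 and 1 were higher, with Car4 at 0.72 ± 0.09 firm under each and Zic5 and Lef1 lost without replicate 1 or 3.

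Targets of signalling pathways that act on ES cell self-renewal were often higher. Of 30 listed LIF, Wnt, BMP, Nodal and FGF targets 16 were called higher (53.3%, against 30.7% of all genes) and 0 lower, with a median of 0.31, against 0.12. Without replicates 1, 2 and 3, 7, 14 and 7 of them were higher, against 669, 2540 and 1327 of all 10237 genes. Lefty1, a secreted Nodal inhibitor, was at 7.36, 8.36 and 2.77 TPM in asynchronous and at 2.22, 1.63 and 0.336 TPM in mitotic cells (1.57 ± 0.31, adjusted p = 0.0021). Its relative Lefty2 rose by 0.75 ± 0.17, and Id3, a BMP target that holds back differentiation, by 0.88 ± 0.17 from 1.83, 2.27 and 2.20 TPM to 4.78, 5.56 and 3.83 TPM. The 3 genes kept their calls without any 1 replicate. Among 12 Myc network genes 3 were higher (25%, below the 30.7% of all genes) and 0 lower, with a median of 0.20, against 0.12. Myc itself was at 1.80, 1.02 and 2.02 TPM against 0.783, 0.366 and 0.440 TPM (0.76 ± 0.14). Max, its dimerisation partner, and Mlx, a related factor that pairs with other proteins of the network, differed by 0.34 and 0.35, calls that were lost without replicate 1 or 3.

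Cell cycle genes were grouped by phase. Of the 5 replication-dependent histone genes listed, whose transcription belongs to S phase, 3 were called higher (60%, against 30.7% of all genes) and 1 lower (20%, against 4.48%), and at the same total 2 and 1. The higher genes were Hist1h2bq, Hist1h2bc and Hist1h2be, of which Hist1h2be differed by only 0.30 ± 0.11 (adjusted p = 0.043) with stages that overlapped, and was not called at the same total (adjusted p = 0.11). Hist1h2br at 0.74 was not called (adjusted p = 0.15). Without replicates 1, 2 and 3 the list had 3, 3 and 2 higher and 0, 1 and 0 lower. Hist1h2bp was called lower, at 3.05, 2.67 and 1.75 TPM against 6.44, 2.86 and 3.81 TPM (-0.58 ± 0.21, adjusted p = 0.048), and was lost without replicate 1 or 3. Among 23 G1 cyclin, CDK, E2F and RB genes 7 were higher (30.4%, close to the 30.7% of all genes) and 2 lower (8.70%, against 4.48%), with 5, 6 and 2 higher and 0 lower in each case without replicates 1, 2 and 3. Ccnd1, cyclin D1 of G1 phase, was at 3.68, 3.09 and 4.13 TPM against 2.00, 1.05 and 1.55 TPM (0.88 ± 0.18), but was not called without replicate 3. Its kinase gene Cdk4 rose by 0.72 ± 0.12 and Cdk2 by 0.59 ± 0.11. E2f1 and Rbl2 were lower by small margins (-0.25 ± 0.09 and -0.20 ± 0.07) and lost their calls in every leave-one-out fit.

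Replication licensing and DNA synthesis genes were called in both directions. Of 52, 12 were higher (23.1%, below the 30.7% of all genes) and 4 lower (7.69%, against 4.48%), with a median of 0.15. After scaling to the same total 8 of the 52 were higher, where 23.8% of all genes were, and 16 lower (30.8%, against 18.9% of all genes). With the step factor 34 were higher (65.4%, against 64.4% of all genes) and 0 lower. The largest rises were in Tk1 and Dut, of nucleotide supply. Tk1, thymidine kinase, was at 5.19, 4.02 and 8.72 TPM against 2.37, 1.83 and 2.67 TPM (1.04 ± 0.13), and the dUTPase gene Dut rose by 0.72 ± 0.10. Chaf1b, a histone chaperone subunit that works at the fork, rose by 0.51 ± 0.13 and was not called without replicate 3. The genes with the largest falls encode licensing factors. Mcm5, a helicase subunit, was at 9.63, 7.84 and 12.8 TPM against 15.3, 11 and 14.8 TPM (-0.42 ± 0.13, adjusted p = 0.024), Orc1, an origin recognition subunit, fell by 0.37 and Mcm2 by 0.33. Their stages overlapped, Mcm5 lost its call without replicate 1 or 3, and Orc1 and Mcm2 lost theirs in every leave-one-out fit. Counts for the list were 4, 8 and 3 higher and 0, 1 and 0 lower without replicates 1, 2 and 3.

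Many genes used in mitosis itself had more pre-mRNA in asynchronous than in mitotic cells. Of 60 G2/M, spindle and kinetochore genes 25 were called higher (41.7%, against 30.7% of all genes) and 1 lower (1.67%, against 4.48%), with a median of 0.22, against 0.12 for all genes. At the same total 21 of the 60 were higher, where 23.8% of all genes were, and 8 lower (13.3%, against 18.9% of all genes). With replicates 1, 2 and 3 left out in turn, 11, 19 and 16 were higher and 0, 1 and 0 lower. Plk1, the polo kinase that drives mitotic entry and spindle assembly (chr7:122159439-122169873, plus strand), was at 2.57, 2.33 and 3.96 TPM in asynchronous and at 0.739, 0.732 and 0.802 TPM in mitotic cells. Mitotic libraries lay close together, and the difference was 3.89-fold by mean TPM (1.15 ± 0.09 on the log2 scale, adjusted p = 7.2e-06). Prc1 and Kif20a, which build the spindle midzone for cytokinesis, rose by 0.68 ± 0.08 and 0.67 ± 0.10. Gtse1, which binds microtubules, was the 1 gene called lower with all replicates in the fit (-0.36 ± 0.12, adjusted p = 0.038) and lost the call in every leave-one-out fit.

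Promoters of G2/M genes are known for CHR elements and CCAAT boxes, the sites of the DREAM complex and of NF-Y. RefSeq promoters (GRCm38.p6, 250 bases before to 50 after the start) were matched by symbol for 8199 of 10237 genes, and for 49 of the 60. TTTGAA or TTTAAA, for CHR, was found on either strand in 73.5% of the 49 and in 17.8% of all promoters, and CCAAT in 75.5% and 40.0%. Among G2/M genes each was in 64.7% of the 17 promoters of genes called higher, and in 78.1% (CHR) and 81.2% (CCAAT) of the other 32. Over all genes, CHR words were in 19.2% of promoters of those called higher and 19.1% of those called lower. The E2F words GCGCGAAA, TTTGGCGC or TTTCCCGC were held by 32.6% of 43 replication gene promoters, 6.12% of the G2/M promoters and 4.00% of all. CCGGAAG, for ETS factors, was in 34.9% of replication, 18.4% of G2/M and 20.1% of all promoters, and TATAAA in 4.65%, 2.04% and 6.16%. None of the 5 histone genes was matched. The words can overlap, and a match is not a site of binding. The 100 bases before the start of Plk1 (chr7:122159335-122159434, plus strand) are shown because this gene had the largest rise of the list, with TTTAAA and CCAAT in capitals:
Plk1: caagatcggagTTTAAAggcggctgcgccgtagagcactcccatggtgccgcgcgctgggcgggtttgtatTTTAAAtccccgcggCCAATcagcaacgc

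Both cytoplasmic actin genes were higher in asynchronous cells. Of 19 listed actin, SRF and YAP target genes 7 were higher (36.8%, close to the 30.7% of all genes) and 0 lower (6, 6 and 3 higher without replicates 1, 2 and 3, and 1 lower without replicate 2). Besides Actg1, Actb, the other cytoplasmic actin, was at 17.3, 19.4 and 14.2 TPM against 7.22, 5.32 and 7.17 TPM (1.25 ± 0.16, adjusted p = 1.4e-04). Tpm1, a tropomyosin, was at 2.34, 16.1 and 5.17 TPM against 1.91, 4.10 and 2.61 TPM (0.91 ± 0.25). Its replicate 2 was far above the others, without it the difference moved by more than 1.5 times, and without replicate 3 it was not called. A CArG box, the binding site of SRF, searched after the values were seen, was in 4 of 16 matched promoters of this list (25%) and in 1.27% of all. The RefSeq start of Actg1 lies inside the Gencode gene given above, so part of the sequence shown next overlaps that gene. The 150 bases before the start of Actg1 (chr11:120348496-120348645, minus strand) are shown because it had the largest rise of this list, with a CCAAT box and the CArG box in capitals:
Actg1: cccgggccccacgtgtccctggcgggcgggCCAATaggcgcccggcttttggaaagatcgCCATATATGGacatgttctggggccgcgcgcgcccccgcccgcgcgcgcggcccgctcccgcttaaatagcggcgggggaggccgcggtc

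Tubulin genes, whose product nocodazole binds, were called in both directions. Of 13 listed, 5 were higher (38.5%, against 30.7% of all genes) and 2 lower (15.4%, against 4.48%), with 1, 3 and 2 higher and 1, 2 and 1 lower without replicates 1, 2 and 3. Tuba1a, an alpha-tubulin, rose by 0.59 ± 0.14, from 1.41, 1.12 and 1.32 TPM to 2.36, 2.61 and 2.34 TPM, and kept its call throughout. Tubb5, the main beta-tubulin of dividing cells, was lower at 9.98, 7.21 and 12.7 TPM against 16.7, 11.5 and 14.8 TPM (-0.50 ± 0.16, adjusted p = 0.023), though its stages overlapped and the call was lost without replicate 1 or 3. Tubb4b and Tube1 differed by 0.32 and 0.31, calls lost without replicate 1.

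Among 21 immediate early genes 4 were called higher (19%, below the 30.7% of all genes) and 1, Btg2, lower (4.76%, against 4.48%), with 4, 4 and 3 higher and 0, 3 and 1 lower without replicates 1, 2 and 3. Their median was 0.24, against 0.12 for all genes. The asynchronous libraries lay above the mitotic ones with no overlap for 8 genes (38.1%, against 23.6% of all). They lay below them for 2 of the 21, where 3.59% of all genes did. After Egr1 and Myc came Dusp6, a phosphatase that ERK signalling induces, at 1.99, 4.84 and 2.13 TPM against 1.28, 1.81 and 1.17 TPM (0.66 ± 0.16). Egr1, Myc and Dusp6 kept their calls whichever replicate was left out.

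As deposited, more p53 targets were called lower than higher. Of 24, 3 were higher (12.5%, against 30.7% of all genes) and 6 lower (25%, against 4.48%), and their median of -0.06 lay 0.18 below that of all genes. At the same total 3 were higher and 12 lower (50%, against 18.9% of all genes). With the step factor divided out 7 were higher (29.2%) and 3 lower, where 64.4% and 1.45% of all genes were called. Ccng1, cyclin G1, was at 5.19, 8.08 and 4.43 TPM against 11.6, 10.0 and 10.5 TPM (-0.80 ± 0.15, adjusted p = 0.0016), and Eda2r, a death receptor of the TNF family, fell by 0.49 ± 0.11. Trp53 itself was higher in asynchronous cells, at 12.1, 8.56 and 18.2 TPM against 9.42, 6.13 and 10.2 TPM (0.51 ± 0.14), and Sesn1 and Ddb2 by 0.40 and 0.34. All of these calls, with that of Btg2, were lost without replicate 1, when 0 of the 24 genes were called in either direction. Without replicates 2 and 3 the counts were 4 and 2 higher and 6 and 2 lower.

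Heat shock and chaperone genes were called in both directions. Of 27, 6 were higher (22.2%, against 30.7% of all genes) and 5 lower (18.5%, against 4.48%), with a median of -0.02. At the same total 5 were higher, where 23.8% of all genes were, and 13 lower (48.1%, against 18.9%), with a median of -0.19. With the step factor 11 were higher (40.7%, against 64.4% of all genes) and 1 lower. Hsp90aa1 and Hspa8, the cytosolic HSP90 and HSC70, were at 6.86, 4.82 and 7.42 TPM against 3.92, 2.76 and 2.98 TPM (0.80 ± 0.14) and at 3.64, 2.78 and 3.49 TPM against 1.72, 1.56 and 1.42 TPM (0.74 ± 0.10). Both kept their calls without any 1 replicate. Hspd1, the mitochondrial chaperonin HSP60, was lower at 17.9, 16.2 and 20.0 TPM against 31.8, 29.1 and 31.7 TPM (-0.75 ± 0.09, adjusted p = 1.0e-04). Subunits of the cytosolic chaperonin diverged, with Cct4 at 0.47 ± 0.09 and Cct3 at -0.46 ± 0.09, and Hsf1, the heat shock regulator, fell by 0.38. The calls of Hspd1, Cct4, Cct3 and Hsf1 were lost without replicate 1, and the list then had 3 higher and 0 lower, against 4 and 2 without replicate 2 and 3 and 3 without replicate 3.

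Stress response genes of the endoplasmic reticulum and of amino acid supply were often higher in asynchronous cells. Of 23 integrated stress and unfolded protein response genes 13 were higher (56.5%, against 30.7% of all genes) and 0 lower, with a median of 0.37, against 0.12. At the same total 11 were higher, where 23.8% of all genes were, and 4 lower (17.4%, against 18.9% of all genes). Stc2, a secreted glycoprotein induced by ATF4, was at 2.29, 1.87 and 3.19 TPM against 0.892, 1.27 and 0.647 TPM (0.83 ± 0.16). Chac1, a glutathione-degrading enzyme, and Xbp1, the unfolded protein response factor, differed by 0.64 and 0.60. None of these calls held without replicate 1, and 3, 12 and 4 genes of the list were higher and 0, 1 and 0 lower without replicates 1, 2 and 3. Chac1 moved by more than 1.5 times without replicate 3 and Xbp1 without replicate 1.

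In metabolism, cholesterol synthesis and SREBP genes were higher in 12 (44.4%, against 30.7% of all genes) and lower in 0 of 27 cases, with a median of 0.22, against 0.12. Fdps, farnesyl diphosphate synthase, was at 3.23, 2.33 and 2.53 TPM against 1.44, 0.708 and 0.751 TPM (0.92 ± 0.13) and kept its call throughout, while Insig1 and Idi1 at 0.63 and 0.62 lost theirs without replicate 3. Of 21 glycolysis genes 11 were higher (52.4%, against the same 30.7%) and 0 lower, with a median of 0.31. Gapdh was at 1.47, 2.91 and 3.32 TPM against 0.979, 0.879 and 0.466 TPM (0.98 ± 0.19), and Pdk1, a mitochondrial kinase that inhibits pyruvate dehydrogenase, at 2.97, 1.46 and 3.15 TPM against 1.00, 0.732 and 0.776 TPM (0.91 ± 0.11). Slc16a3, a lactate exporter, rose by 0.74 ± 0.17, moved by more than 1.5 times without replicate 1 and was then not called. Higher calls numbered 4, 10 and 5 for cholesterol synthesis and 4, 11 and 4 for glycolysis without replicates 1, 2 and 3.

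Ribosomal protein genes held some of the largest rises, and a few were called lower. Summed over 73 genes their pre-mRNA came to 959, 910 and 1147 TPM in asynchronous and to 800, 694 and 788 TPM in mitotic cells, 1.20, 1.31 and 1.46 times as much by pair. Of these 38 were higher (52.1%, against 30.7% of all genes) and 5 lower (6.85%, against 4.48%), with a median of 0.38, and differences ran from -0.67 to 2.86. At the same total 37 were higher and 17 lower (23.3%, against 18.9% of all genes). Rps16, of the small subunit, was lower at 10.9, 10.1 and 11.4 TPM against 19.6, 16.4 and 17.4 TPM (-0.67 ± 0.10, adjusted p = 4.7e-04). Rpl23 and Rps10 fell by 0.47 and 0.38, and none of the stages of these 3 genes overlapped. The 3 calls were lost without replicate 1, when 28 genes were higher and 0 lower, and 36 and 27 were higher and 3 and 3 lower without replicates 2 and 3. The median was 0.57 over the 29 members that hold a snoRNA on their strand and 0.37 over the 44 that do not, but the shares called higher were alike (51.7% and 52.3%), and in CCNA-GFP cells, a second line described below, the order was turned round (0.73 and 0.77). Over 30 small and 43 large subunit genes the medians were 0.62 and 0.34, and in CCNA-GFP cells both were 0.74.

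Ribosome biogenesis genes, which assemble these proteins in the nucleolus, had the lowest median of all 31 lists (-0.12, lying 0.24 below all genes). Of 51, 5 were higher (9.80%, against 30.7% of all genes) and 9 lower (17.6%, against 4.48%). After scaling to the same total 34 were lower (66.7%, against 18.9% of all genes), and with the step factor 14 were higher (27.5%, against 64.4% of all genes) and 2 lower. Ddx21, a nucleolar RNA helicase, was at 5.86, 4.63 and 7.04 TPM against 9.77, 8.18 and 10.5 TPM (-0.62 ± 0.10, adjusted p = 4.7e-04) and kept its call throughout. Nolc1 and Rrp12 fell by 0.45 and 0.42, both lost without replicate 1. Gnl3, nucleostemin, went against the group at 11.9, 9.17 and 15.6 TPM against 7.87, 5.13 and 5.12 TPM (0.90 ± 0.16), with Ddx51 and Nip7 at 0.53 and 0.47, of which Ddx51 was lost without replicate 1 or 3 and moved by more than 1.5 times without replicate 3 and Nip7 was lost without replicate 3. Without replicates 1, 2 and 3 the counts were 2, 4 and 1 higher and 1, 6 and 5 lower.

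**Figure D3:**
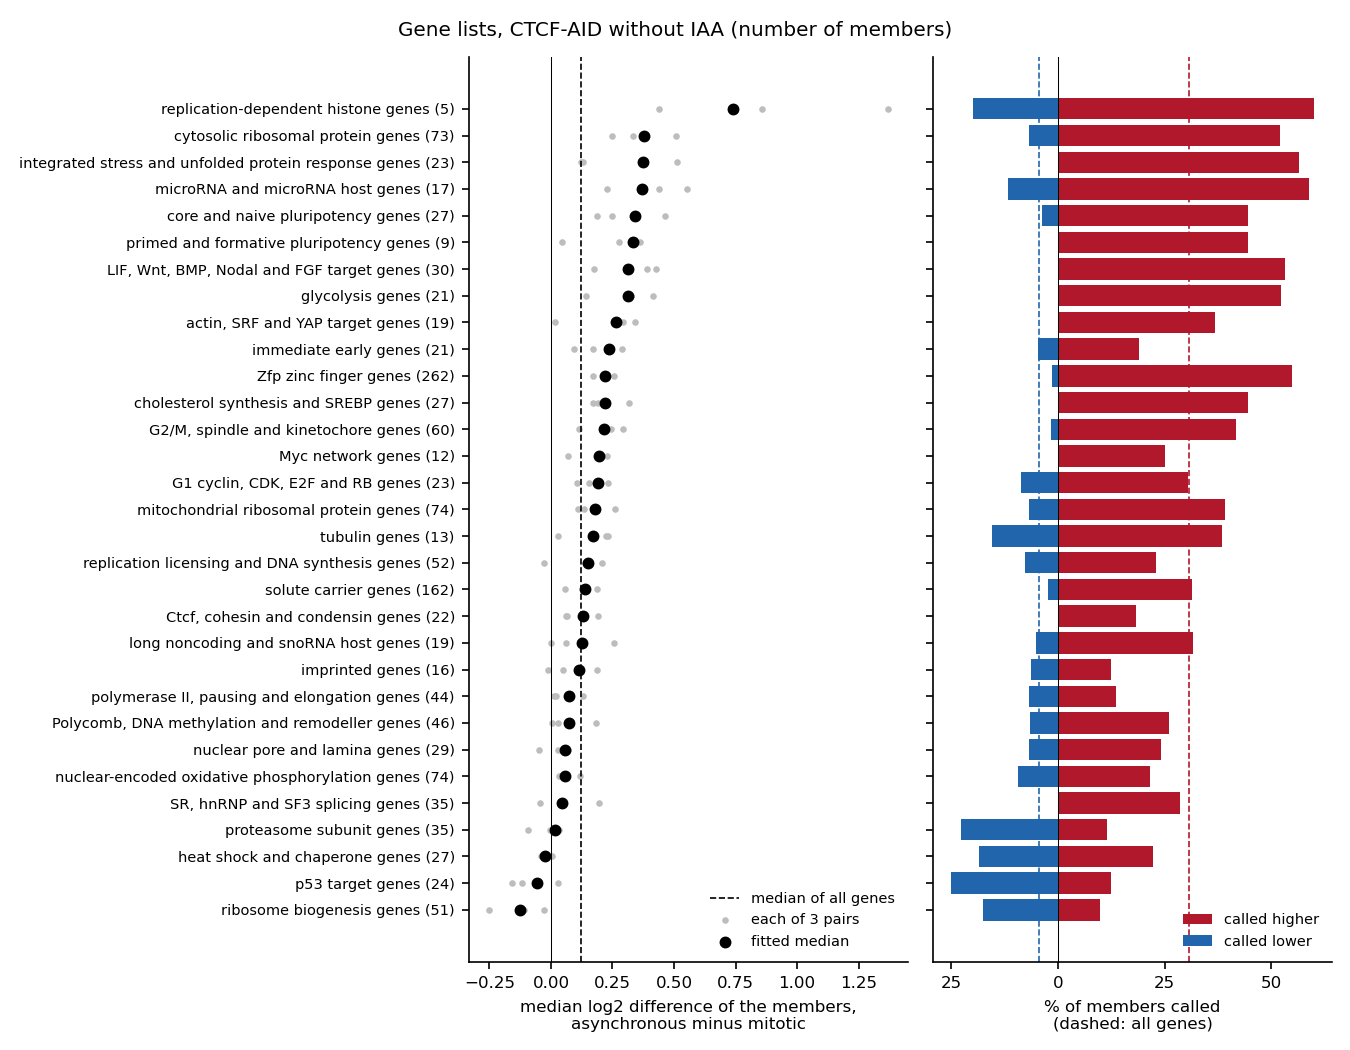
Left, median log2 difference of the members of each of 31 gene lists, asynchronous minus mitotic, from the fit (black) and in each of the 3 replicate pairs (grey), with the median of all genes dashed. Right, percentage of members called higher (red) and lower (blue), with the share of all genes dashed; ribosome biogenesis, p53 target and heat shock genes sit at the bottom, and histone, ribosomal protein and stress response genes at the top.

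Genes of mitochondria and of protein turnover were called in both directions. Of 74 mitochondrial ribosomal protein genes 29 were higher (39.2%, against 30.7% of all genes) and 5 lower (6.76%, against 4.48%), with a median of 0.18, and 23 and 12 (16.2%, against 18.9% of all genes) at the same total. The largest rises were in Mrpl53, Mrpl24 and Mrps2 at 0.72, 0.68 and 0.63, while Mrpl4 was at 1.58, 1.11 and 2.02 TPM against 2.94, 2.32 and 3.34 TPM (-0.60 ± 0.09). Of 74 nuclear-encoded oxidative phosphorylation genes 16 were higher (21.6%) and 7 lower (9.46%), with a median of 0.06, and after scaling to the same total 13 and 22 (29.7% lower, median -0.07). Cox5b, Ndufb4 and Cox6c rose by 0.57, 0.55 and 0.54, and Cox8a, a cytochrome oxidase subunit, fell to 4.91, 3.35 and 4.43 TPM from 8.18, 5.49 and 8.08 TPM (-0.65 ± 0.10), with Uqcr11 and Atp5b at -0.50 and -0.49. Of 35 proteasome subunit genes 4 were higher (11.4%) and 8 lower (22.9%), with a median of 0.02, 3 and 16 at the same total (45.7% lower, median -0.14), and 14 and 0 with the step factor (40% higher, against 64.4% of all genes), with Psmc4, Psmb6 and Psmb10 at 0.52, 0.49 and 0.47 and Psmc5, Psmd11 and Psmd4 at -0.45, -0.41 and -0.40. Mrpl24, Mrpl4, Ndufb4, Cox6c, Cox8a, Uqcr11, Psmb6 and Psmb10 kept their calls without any 1 replicate, and the others named here lost theirs without at least 1. The differences of Mrpl53 and Psmc4 moved by more than 1.5 times without replicate 3. Without replicates 1, 2 and 3 the higher calls were 6, 24 and 10, 7, 12 and 8, and 2, 4 and 2 in the 3 lists, and the lower calls 1, 3 and 2, 4, 6 and 6, and 0, 1 and 5.

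Of the 35 splicing genes listed 10 were called higher (28.6%, close to the 30.7% of all genes) and 0 lower, and the largest rises were in SR protein genes. Srsf2 was at 37.2, 25.1 and 23.0 TPM in asynchronous and at 14.4, 9.69 and 6.73 TPM in mitotic cells (1.41 ± 0.19, adjusted p = 2.2e-04), and Srsf1 at 9.45, 11.7 and 14.9 TPM against 4.87, 4.22 and 4.66 TPM (1.20 ± 0.15). Srsf6 rose by 1.13 ± 0.15, and the 3 genes kept their calls without any 1 replicate. The list's median was only 0.05, and after scaling to the same total 13 members were lower (37.1%, against 18.9% of all genes) beside the 10 that were higher. Higher calls were 4, 8 and 5 without replicates 1, 2 and 3.

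Polymerase II, pausing and elongation genes were called higher in 6 (13.6%, below the 30.7% of all genes) and lower in 3 (6.82%, against 4.48%) of 44 cases, with a median of 0.07, and at the same total in 6 and 16 (36.4% lower, against 18.9%, median -0.07). The 3 lower genes were subunits of the enzyme: Polr2l at 1.77, 1.5 and 2.09 TPM against 3.15, 2.71 and 3.39 TPM (-0.55 ± 0.09), Polr2d at -0.53 ± 0.10 and Polr2b at -0.43 ± 0.09, of which only Polr2b lost its call, without replicate 1. A further subunit, Polr2f, was higher by 0.38, as were the elongation factor gene Supt4a by 0.53 and Mllt1 by 0.39, calls lost without replicate 1. Higher calls were 0, 5 and 2 without replicates 1, 2 and 3, and lower calls 2, 3 and 3.

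Chromatin genes gave 12 higher (26.1%, near the 30.7% of all genes) and 3 lower (6.52%, near 4.48%) calls of 46, with a median of 0.07, and 8 and 12 at the same total (26.1% lower, against 18.9%, median -0.07). Chd4, the ATPase of the NuRD remodelling complex (chr6:125095981-125130591, plus strand), was lower at 8.03, 6.43 and 9.13 TPM against 14.4, 12.1 and 16.4 TPM (-0.79 ± 0.12, adjusted p = 4.4e-04) and kept its call throughout. The remodellers Ep400 and Chd2 fell by 0.40 and 0.39, and the Polycomb genes Cbx6, Ring1 and Cbx7 rose by 0.48, 0.45 and 0.42, all 5 lost without replicate 1, and Ring1 moved by more than 1.5 times without replicate 3. Cbx6 was listed at 0, 0 and 0.0776 TPM in mitotic cells. Without replicate 1 the list had 0 higher and 1 lower, without replicate 2 it had 10 and 2, and without replicate 3 it had 2 and 3.

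Nuclear pore and lamina genes were higher in 7 (24.1%, against 30.7% of all genes) and lower in 2 (6.90%, against 4.48%) of 29 cases, with a median of 0.06, and at the same total in 5 and 13 (44.8% lower, against 18.9%, median -0.10). Nup62, of the central channel, was at 4.09, 3.04 and 6.89 TPM against 2.46, 1.56 and 2.46 TPM (0.80 ± 0.18), and Lmnb1 and Lbr of the lamina rose by 0.44 and 0.43, while Nup214 and Nup188 fell by 0.35 and 0.26. Nup62 was not called without replicate 3, the other 4 not without replicate 1, and 1, 5 and 1 genes were higher and 0, 1 and 1 lower without replicates 1, 2 and 3.

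Noncoding genes included snoRNA hosts with large rises. Of 19 long noncoding and snoRNA host genes 6 were higher (31.6%) and 1 lower (5.26%), close to the 30.7% and 4.48% of all genes, with 5, 6 and 5 higher and 0 lower without replicates 1, 2 and 3. Gas5 was at 12.9, 9.54 and 13.6 TPM against 3.22, 3.27 and 2.12 TPM (1.75 ± 0.14) and Dancr at 7.79, 6.74 and 6.91 TPM against 3.31, 3.39 and 2.64 TPM (0.99 ± 0.12). Miat was lower by 0.26 ± 0.07 and was not called in any leave-one-out fit. For the 205 genes that hold a snoRNA on their strand the median difference was 0.05, with 26.3% higher and 11.7% lower, against 0.12, 30.8% and 4.34% for the 10020 others. In 16 imprinted genes 2 were higher (12.5%, below the 30.7% of all genes) and 1 lower (6.25%, against 4.48%), among them Peg10 at 0.54 ± 0.20, whose replicate 2 stood far above the others with 6.47 TPM against 0.874 and 1.64 TPM and without which the difference moved by more than 1.5 times. Snrpn was lower by 0.19 ± 0.05, and imprinted genes had 2, 3 and 1 higher and 0, 0 and 1 lower calls without replicates 1, 2 and 3.

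Of 17 listed microRNA and microRNA host genes 10 were higher (58.8%, against 30.7% of all genes) and 2 lower (11.8%, against 4.48%), with 5, 10 and 5 higher and 2 lower in each case without replicates 1, 2 and 3. These values are for the annotated gene, often the hairpin alone, within reads of a longer primary transcript, and are not levels of mature microRNAs. Mir496a (chr12:109739119-109739197, plus strand) was at 0, 0.543 and 0 TPM in asynchronous and at 1.81, 3.81 and 2.85 TPM in mitotic cells (-1.69 ± 0.10, adjusted p = 6.2e-07). It lies on the plus strand inside Mirg (chr12:109729764-109749460), an imprinted noncoding RNA, which went the other way, at 5.75, 6.78 and 5.77 TPM against 3.09, 3.17 and 2.12 TPM (0.91 ± 0.11). How the 2 models shared the reads was not tested. Mir34a, a microRNA gene that p53 induces, was at 5.04, 5.26 and 5.04 TPM against 0.783, 2.15 and 0.466 TPM (1.6 ± 0.24). Mir20a was at 1.26, 0.760 and 2.92 TPM and listed at 0.0870, 0 and 0 TPM in mitotic cells (1.28 ± 0.32, not called without replicate 3), and its host Mir17hg, named here for that reason, rose by 0.90 ± 0.12. Mir3078 rose by 1.26 ± 0.22 and was not called without replicate 1. In the cluster of ES cell microRNAs, Mir290a was at 0, 0.174 and 0.226 TPM against 0.500, 0.464 and 0.595 TPM (-0.43 ± 0.09). Mir294 of the same cluster, named after its values were seen, was called the other way, at 0.781, 0.152 and 0.340 TPM against 0.218, 0.0488 and 0 TPM (0.37 ± 0.09, adjusted p = 0.0068), with stages that overlapped. Mature microRNAs of these genes, from RefSeq (GRCm38.p6), are shown with the seed, bases 2 to 8, in capitals, to set the seeds of genes that moved in opposite directions side by side. Those of miR-20a-5p, miR-290a-3p and miR-294-3p share the letters AAGUGC, while Mir290a was called lower and the other two higher:
mmu-miR-496a-3p: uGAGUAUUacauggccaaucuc
mmu-miR-34a-5p: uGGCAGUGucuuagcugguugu
mmu-miR-20a-5p: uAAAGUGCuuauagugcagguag
mmu-miR-290a-5p: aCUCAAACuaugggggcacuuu
mmu-miR-290a-3p: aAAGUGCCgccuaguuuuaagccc
mmu-miR-294-3p: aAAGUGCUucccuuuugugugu

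Among large families, Zfp zinc finger genes had many small rises. Of 262, 144 were higher (55.0%, against 30.7% of all genes) and 4 lower (1.53%, against 4.48%), with a median of 0.22. At the same total 109 were higher, where 23.8% of all genes were, and 21 lower (8.0%, against 18.9% of all genes). For 104 of the 262 (39.7%, against 23.6% of all genes) the asynchronous libraries lay above the mitotic ones with no overlap. Zfp593, Zfp446 and Zfp414 rose by 0.84, 0.81 and 0.78 and kept their calls without any 1 replicate. Zfp296, an ES cell zinc finger gene, was lower at 2.29, 1.22 and 2.62 TPM against 5.15, 3.32 and 5.28 TPM (-0.89 ± 0.20) and also kept its call, while Zfp750 and Zfp7, at -0.56 and -0.45, lost theirs without replicate 1 and moved by more than 1.5 times without replicates 3 and 2. Solute carrier genes were close to the background in higher calls, with 51 of 162 higher (31.5%) and 4 lower (2.47%, against 4.48% of all genes). At the same total 38 of them were higher and 16 lower (9.88%, against 18.9%). Slc25a1, Slc25a39 and Slc1a4 rose by 0.94, 0.89 and 0.87, and Slc25a4, the mitochondrial ADP/ATP carrier, fell by 0.59, all firm without any 1 replicate. Slc19a2 and Slc25a17 fell by 0.62 and 0.45, lost without replicate 1. Without replicates 1, 2 and 3 higher calls were 26, 112 and 66 for Zfp genes and 7, 38 and 21 for solute carriers, and lower calls 1, 3 and 2 and 1, 4 and 4.

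Some group medians depended on the scale. When the step factor was divided out, the median of all genes moved by 0.16, to 0.28, and the medians of p53 target, heat shock and ribosome biogenesis genes turned from -0.06, -0.02 and -0.12 to 0.12, 0.14 and 0.10. Relative to the median of all genes these 3 lists were lower in each scaling of the CTCF-AID libraries, by 0.16 to 0.24, 0.14 to 0.22 and 0.18 to 0.34. In CCNA-GFP cells as deposited their medians were 0.22, 0.45 and 0.34, against 0.33 for all genes, so that only p53 targets lay clearly below. At the same total they were -0.26, 0.0088 and -0.14 in that line. Of 152 named genes 25 lost their call with the step factor, and each of the 25 had been called lower in asynchronous cells. Among them were Mcm5, Orc1, Mcm2, Gtse1, Cct3, Hsf1, Rpl23, Rps10, Nolc1, Psmc5, Psmd11, Psmd4, Ep400, Chd2 and Tubb5. Ribosomal protein genes were higher than all genes by 0.16 to 0.36, core and naive pluripotency genes by 0.19 to 0.28, and G2/M genes by 0.05 to 0.15 across the same scalings.

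In CTCF-AID cells the difference varied with gene length, and was lowest in genes of middle to long length. Genes were put into 10 bins of equal number by length. The shortest bin of 10225 genes with a matched length (median 3.16 kb) had a median difference of 0.18, which declined to 0.09 in the seventh bin (34.8 kb) and stood at 0.16 in the longest (150 kb). The share called higher was 34.1% in the shortest, 24.3% in the seventh and 39.6% in the longest bin, while the share called lower was 5.67%, 4.21% and 2.05%. After scaling to the same total the medians were 0.12, -0.02 and 0.07. In CCNA-GFP cells the medians of these 3 bins were nearly level as deposited, at 0.32, 0.33 and 0.33, and were 0.073, 0.0053 and 0.038 at the same total. The 14 genes with a single exon had a median of 0.42. The bins are a description across genes, which are not replicates, and their mean levels also differed.

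**Figure D4:**
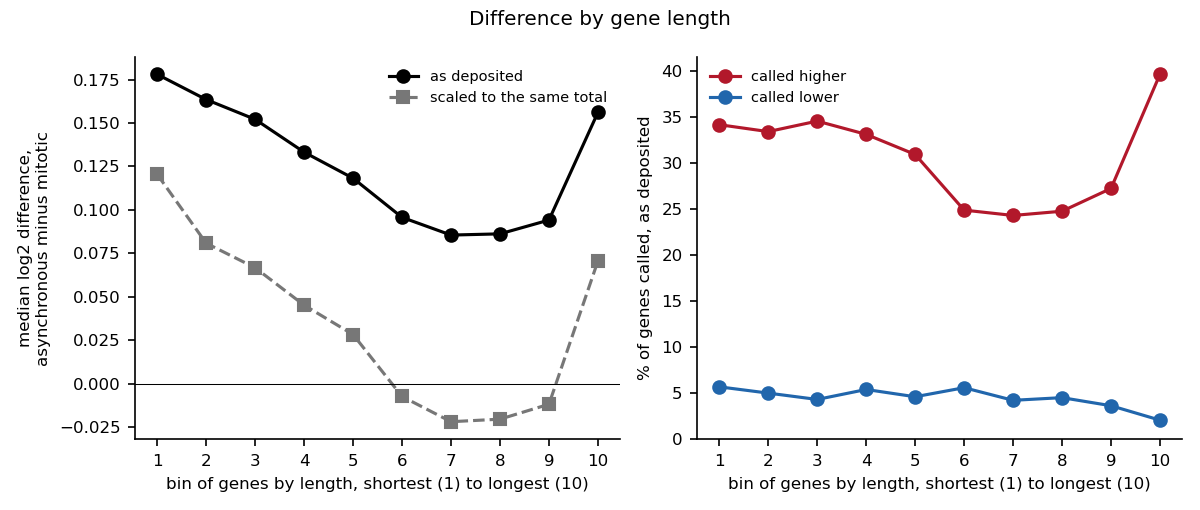
Left, median log2 difference (asynchronous minus mitotic) by bin of gene length, from the shortest (1) to the longest (10), as deposited (circles) and after scaling the libraries to the same total (squares). Right, percentage of genes in each bin called higher (red) or lower (blue) as deposited; medians fell from bin 1 to bin 7 and were higher again in bin 10.

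The same comparison in CCNA-GFP cells, another E14Tg2a-derived line with a cyclin A reporter and 3 libraries of each stage, was set beside these values. Its table was normalised apart, so that no test was made between the lines. There the median difference was 0.24, 0.30 and 0.43 by pair (mitotic cells again lower), and 6975 of 9911 genes were higher (70.4%) and 195 lower (1.97%), or 2452 (24.7%) and 2010 (20.3%) after scaling to the same total. Of the 9574 genes listed in both tables the differences correlated across genes, which are not independent replicates (Pearson's r 0.73 and Spearman's rho 0.65, or 0.78 and 0.75 after scaling to the same total). After this scaling, 2129 of 2271 genes called higher in CTCF-AID cells had the same sign in CCNA-GFP cells (93.8%), against 54.7% of all shared genes, and 1726 of 1903 called lower (90.7%), against 45.3%. Called the same way in both lines were 1500 higher and 1200 lower genes, with 14 and 16 called the opposite way.

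Several genes at the extremes had the same sign in both lines. Hist1h2bq, Rps12, Actg1 and Hist1h2bc differed by 3.65, 2.67, 2.48 and 2.66 in CCNA-GFP cells, and Btg2, Tubb3 and Mir496a by -1.21, -0.65 and -1.04. Some genes called lower in CTCF-AID cells differed less there as deposited, as Hspd1 at 0.02, Ccng1 at -0.21 and Znf41-ps at -0.06, beside a median of 0.33 for all genes. As deposited 226 of 446 shared genes called lower had a negative difference in CCNA-GFP cells (50.7%, against 8.22% of all shared genes). Pou5f1 and Nanog, not called in CTCF-AID cells, were higher in CCNA-GFP cells by 0.50 and 0.68 as deposited (limma adjusted p = 0.0022 and 2.9e-04), where the median of all genes was 0.33. After scaling to the same total they differed by -0.045 and 0.19 (adjusted p = 0.78 and 0.22), and neither was called. Ctcf, likewise not called in CTCF-AID cells without IAA as deposited, was higher in CCNA-GFP cells by 0.64 (limma adjusted p = 1.1e-04). At the same total its difference there was 0.17 and still called (limma adjusted p = 0.030). In CTCF-AID cells with IAA it was 0.35 (limma adjusted p = 0.017).

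**Figure D5:**
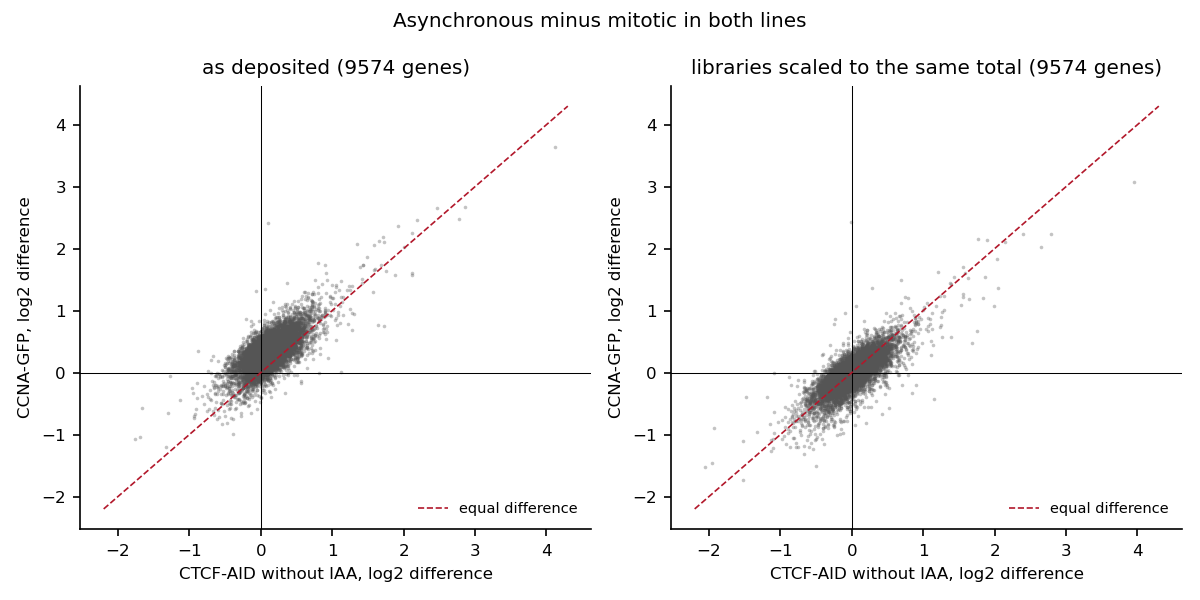
Difference in log2(TPM + 1), asynchronous minus mitotic, of 9574 genes in CTCF-AID cells without IAA (x axis) and in CCNA-GFP cells (y axis), as deposited (left) and after scaling the libraries of each table to the same total (right). Each point is a gene and the dashed line marks equal differences; as deposited the median of these genes was 0.33 in CCNA-GFP and 0.12 in CTCF-AID cells.

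Cells of the same line that had received 0.5 mM IAA, which removes CTCF and was given for longer to asynchronous than to mitotic cells, gave 3850 genes higher (37.6%) and 509 lower (4.97%), with median differences of 0.11, 0.16 and 0.16 by pair. At the same total the counts were 2982 (29.1%) and 2245 (21.9%). The test of the difference between the arms, an interaction in a fit of all 36 CTCF-AID libraries, called 12 genes with a larger (0.117%) and 35 with a smaller (0.342%) asynchronous minus mitotic difference when IAA was present. At the same total 33 and 86 were called, and without the replicate block 0 and 5. At an unadjusted p under 0.05 there were 339, a share of the 10237 genes below the 0.05 that would pass with no interaction in any gene. For a typical gene the 95% interval of this difference spanned ± 0.24 on the log2 scale.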

How the data were processed

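Total RNA depleted of ribosomal RNA was sequenced from 55 libraries of CTCF-AID and CCNA-GFP cells, of which 6 were compared here. The authors aligned reads to mm10 with STAR and estimated transcript abundance with RSEM on a Gencode annotation to which a pre-mRNA isoform of each gene was added (versions of both tools are not given in the sources used here). The deposited values are TPM of that isoform, for genes whose mean passed 0.5 TPM either when asynchronous or at 2 or more times after release, a filter of the authors that the mitotic level does not enter. RSEM divides exon reads between the pre-mRNA and the mRNA, so pre-mRNA TPM is an estimate, and it is uncertain for near-identical copies and genes that overlap on a strand. TPM keep no depth. In each of the 18 libraries fitted, all values under 1 TPM were whole multiples (within 0.02 steps) of a step, which is 0.01 times a factor of 1.86 to 2.80 that no source used here explains. In the 6 libraries compared this step factor was 1.86, 2.17 and 1.89 in asynchronous and 2.17, 2.44 and 2.59 in mitotic cells. It was larger in the mitotic library of each pair. Dividing it out, as an alternative scaling, thus raised asynchronous relative to mitotic values. An earlier estimate took the smallest value of a library as its step and gave far fewer calls. It was corrected after those counts had been seen.

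Levels were compared on log2(TPM + 1), with a pseudocount of 1 and no further filter, which understates the change of low genes. limma (3.58.1, R 4.3.3) was fitted to the 18 CTCF-AID libraries without IAA, with the stage as group and the replicate number as a block, and a trended prior. This left 8 residual degrees of freedom to estimate the spread. Fits with a replicate left out had fewer, and the fit without replicate 1 the fewest. P-values were adjusted by Benjamini-Hochberg over 10237 genes, and a gene was called where its adjusted p was under 0.05. The samples were paired by number because the comparison was set up by replicate and the paper takes fold changes within replicates. Libraries with the same number deviated together from their stage means (correlations of 0.546, 0.676 and 0.599, and -0.0341 or lower between different numbers). Such deviations cancel over the 3 libraries of a stage, so the low values between different numbers are not separate evidence for the pairing. Other scalings, pseudocounts, filters and sample sets were tried, and scaling to the same total with a replicate left out was added after seeing the data.

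Named genes were Ctcf, core pluripotency genes, the 10 largest called differences in each direction, up to 3 called members per list and direction with the largest differences, and the 3 strongest interactions with IAA, with hosts and markers where a result turned on them. The lists, members and tests were chosen with earlier results of these data known. Positions are of Gencode genes on GRCm38, matched by symbol for 10225 genes. Tables and figures used Python 3.11.15, numpy 2.4.6, pandas 2.3.3 and matplotlib 3.10.9.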

Additional observations from a re-analysis of the deposited data

Results flagged for a closer look

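The asynchronous minus mitotic difference depended on IAA for few genes. By the interaction in limma, 12 genes had a larger and 35 a smaller difference when IAA was present, at a Benjamini-Hochberg adjusted p under 0.05. With any 1 replicate left out 0 to 6 and 0 to 23 genes were called, so these counts rest on all 3 replicates. Without replicate 1, in the fit with the fewest libraries, the counts were 0 and 0, so that each gene named below lost its call there. Scaling to the same total gave 33 and 86, and leaving out the replicate block gave 0 and 5. The gene with the strongest interaction was Nle1, a notchless homolog used in ribosome assembly, with an interaction of -1.30 ± 0.14 (adjusted p = 3.6e-05). Without IAA it was at 4.35, 4.21 and 5.40 TPM in asynchronous and at 4.85, 3.71 and 4.89 TPM in mitotic cells, and with IAA at 1.04, 1.00 and 1.12 TPM and at 4.04, 3.41 and 4.28 TPM. Of the 4 groups the asynchronous cells with IAA were lowest. They had received IAA for longer than the mitotic cells, and the part of that in the interaction was not tested. Csnk2a2, a catalytic subunit of casein kinase 2, had an interaction of -1.01 ± 0.14 (adjusted p = 1.9e-04), with 2.46, 2.93 and 2.77 TPM in asynchronous cells with IAA and 5.98 to 8.75 TPM in the other groups. Dennd6b had an interaction of -0.90 ± 0.11 (adjusted p = 6.5e-05).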

How the results depend on the processing

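Without the replicate block, 712 genes were higher and 76 lower in asynchronous CTCF-AID cells without IAA, against 3143 and 459 with it, and the counts were 1705 and 179 with IAA, 4628 and 76 in CCNA-GFP cells, and 0 and 5 for the interaction in limma (339 at an unadjusted p under 0.05 with the block). A mean of at least 1 TPM left 2058 higher. The step factor gave 6596 and 148. Median ratios gave 2174 and 2216, so that lower calls then outnumbered higher ones. Scaling to the same total gave 1933 lower, 2245 lower with IAA, 2452 and 2010 in CCNA-GFP cells, and 33 and 86 interactions. Leaving out 1 replicate gave 669 to 2540 higher and 80 to 285 lower, 468, 1977 and 1442 higher and 375, 1572 and 1202 lower without replicates 1, 2 and 3 when also scaled to the same total (added after seeing the data), 2121 to 3198 and 206 to 564 with IAA, 4656 to 6722 and 128 to 197 in CCNA-GFP cells, and 0 to 6 and 0 to 23 interactions. The median difference of 0.12 became 0.0087 with median ratios, 0.22 with a pseudocount of 0.1, 0.030 at the same total and 0.28 with the step factor. Of uncalled genes, Ctcf turned to -0.022 with median ratios, Pou5f1 to -0.20 with median ratios, -0.16 at the same total and -0.062 without replicate 3 (up to 0.057 without 1 replicate), and Cd68, a macrophage gene at -0.14, to 0.050 with the step factor and 0.043 without replicate 1 (-0.249 without replicate 3). With the step factor Ctcf (0.43, adjusted p = 0.0045) and Nanog (0.49, adjusted p = 0.0058) were called. Of 152 named genes, 68 lost their call without the block, 25 with the step factor, and 69, 20 and 45 without replicates 1, 2 and 3. Other settings lost at most 5, though a mean of at least 1 TPM kept only 136 of the 152 genes in the fit. The cause of these changes was not tested.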
